A study of Mus musculus with 2 samples.

Results

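The genes described here are 6 known from stromal, bone and vascular cells that act on blood stem cells and their progeny: *Kitl*, *Angpt1*, *Il7*, *Jag1*, *Lepr* and *Vcam1*. All 6 are called factors below, although *Lepr* encodes a receptor used to mark such cells. They are taken by their symbols, in a choice made with earlier results of these data known, and all 6 were found among the 32285 genes of both count matrices. With both libraries summed, endothelial-like cells held the largest share of the *Kitl* and *Il7* RNA counted, fibroblast-like cells that of *Angpt1* and *Vcam1* and osteoblast-like cells that of *Jag1*, while *Lepr* was spread over several stromal clusters. *Kitl*, *Lepr* and *Vcam1* were found together in nearly all of 22 cells that carried markers of marrow reticular stroma. Their summed levels in the 20 untreated of these cells lay above those of every named cluster in that library. Between the calcitriol and untreated libraries, endothelial *Kitl* differed little, and *Angpt1* was lower in fibroblasts and higher in 1 of 3 osteoblast-like clusters. *Lepr* was higher in a cluster led by *Msmp* and in 1 of 3 tendon-like clusters.

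Single-cell RNA sequencing was performed on femoral cells of male C57BL/6J mice at the age of 7 weeks. The calcitriol group had received 2.5 μg/kg calcitriol, the active form of vitamin D, as 3 daily intravenous injections, and its bones were collected 24 h after the last of them. The control group was untreated and received no vehicle injection as far as the sources state. Femurs of 6 mice per group were pooled into 1 library, so the spread between mice cannot be seen, no test between the groups was possible, and every interval below is a 95% interval that covers counting error only. For levels and log2 ratios it treats each counted molecule as independent. The spread between cells is then not covered, and the interval is too narrow where few cells hold most of the molecules. The epiphyses had been cut off, the marrow flushed out, and the bone digested with collagenase, and these first digests were discarded. Cells were then released from the remaining bone with EGTA and collagenase, and CD45-positive cells were removed with magnetic beads. The cells were thus those that stayed with the bone through the first digestions. The effects of calcitriol, of the injections and of any difference in the handling of the pools cannot be told apart in this design.

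The files held 6076 barcodes and 70266983 unique molecular identifiers (UMIs, counted RNA molecules) in the untreated library, and 4562 barcodes and 60392557 UMIs in the calcitriol library. After filtering, 4393 and 3689 cells remained, with medians of 11033 and 12271 UMIs. Over all barcodes, before filtering, haemoglobin RNA made up 41.2% of the UMIs in the untreated library and 10.6% in the calcitriol library. Of the kept cells 2306 and 434 were erythroid-like, so levels are given within clusters rather than over whole libraries. The libraries shared 8 barcodes, 2 of them among the kept cells.

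Blood stem cells live beside small vessels in the marrow, where reticular stromal cells and endothelial cells hold them in place and feed them. *Kitl* encodes stem cell factor, the ligand of the receptor Kit, and *Angpt1* encodes angiopoietin-1, the ligand of the receptor Tek on endothelial cells. *Il7* encodes a cytokine that early lymphoid cells need, and *Jag1* encodes a ligand of the Notch receptors. *Lepr* encodes the leptin receptor and is widely used to mark the perivascular reticular cells of the marrow, which are also known for *Cxcl12* and *Adipoq*. *Vcam1* encodes an adhesion molecule that binds integrins containing the alpha 4 chain, encoded by *Itga4*, on blood cells.

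Calcitriol acts through the vitamin D receptor, a nuclear receptor that binds DNA, so the bases just upstream of the genes are shown for the members that RefSeq windows cover. RefSeq promoter windows of build GRCm38.p6 matched 3 of the 6 members, *Kitl*, *Lepr* and *Jag1*, while *Angpt1*, *Vcam1* and *Il7* were not matched. Each line gives the bases of the window that lie upstream of the annotated gene start, 5′ to 3′ on the strand of the gene, and capitals mark CCAAT read on the opposite strand.
Kitl, chr10:100015571-100015629, plus strand: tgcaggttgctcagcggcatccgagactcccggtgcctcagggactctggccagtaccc
Lepr, chr4:101717157-101717403, plus strand: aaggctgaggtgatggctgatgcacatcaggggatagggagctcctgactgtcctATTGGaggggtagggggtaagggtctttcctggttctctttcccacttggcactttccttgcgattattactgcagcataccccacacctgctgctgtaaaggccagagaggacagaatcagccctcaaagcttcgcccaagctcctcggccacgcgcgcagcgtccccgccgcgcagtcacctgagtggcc
Jag1, chr2:137116645-137116770, minus strand: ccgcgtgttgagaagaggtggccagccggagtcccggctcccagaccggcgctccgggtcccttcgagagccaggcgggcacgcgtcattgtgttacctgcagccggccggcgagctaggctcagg
The windows were searched over 250 bases on both strands for 6-letter words that the vitamin D receptor is known to bind in pairs, namely AGGTCA, the word AGTTCA, the word GGGTCA and the word GGTTCA. None of the 4 windows, of which 2 belonged to *Lepr*, held any of these words, against 38.6% of 32851 windows. A pair of such words with 3 bases between them was found in 0.0396% of all windows. Positions are counted back from the 3′ end of each window, not from the annotated gene start. CCAAT, read on both strands, was found once, in a *Lepr* window at −195, and in 33.8% of all windows. TATAAA, read on the strand of the gene, was found in the *Kitl* window at −25 and in 7.59% of all windows. The *Kitl* window ends at 100015820, so this word lies downstream of the bases shown and inside the annotated gene. The search shows only which letters stand in these windows.

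The 6 genes lie on 5 chromosomes of GRCm38. *Kitl* spans chr10:100015630-100100416 on the plus strand, *Lepr* chr4:101717404-101815352 on the plus strand and *Jag1* chr2:137081456-137116644 on the minus strand, and no other annotated gene overlaps these 3. *Angpt1* spans chr15:42424723-42676977, *Vcam1* chr3:116109949-116129688 and *Il7* chr3:7569994-7613760, all on the minus strand, and each is overlapped by 1 antisense gene, *Gm17473*, *Gm43109* and *Gm16685* respectively.

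The 8082 kept cells formed 25 clusters, which were named from marker lists only where the markers allowed it. They comprised 7 erythroid-like clusters, 3 each of tendon-like, osteoblast-like and chondrocyte-like cells, 2 endothelial-like clusters and 1 each of fibroblast-like, smooth muscle-like, osteocyte-like, synovial lining-like and Schwann-like cells. A further 2 clusters stayed unnamed and are called by their leading genes, *Msmp* with *Cytl1* and *S100a9* with *S100a8*. In 4 of the named clusters none of the 10 leading genes was a marker of the name: the tendon-like cluster led by *Igfbp2*, the chondrocyte-like clusters led by *Chil1* and by *Col10a1*, and the endothelial-like cluster led by *Ccl21a* and *Lyve1*, genes known from lymphatic endothelium. The fibroblast-like cluster, led by *C3* and *Ccl7*, carried all 8 fibroblast markers, among them *Pdgfra*, *Pi16* and *Dpp4*. The endothelial-like cluster led by *Fabp4* and *Flt1* carried all 10 endothelial markers. A level is given as CPM, the UMIs of a gene per 1000000 UMIs of the cells concerned, and since CPM of different genes were not scaled to each other, levels are compared only within a gene.

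**Figure D1:**
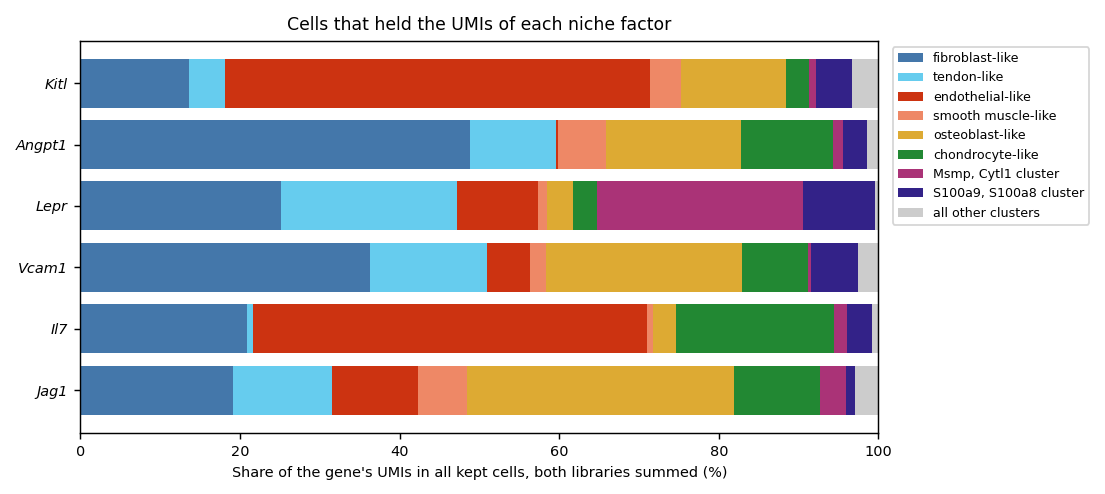
Stacked bars show, for each factor, the share of its UMIs (%, both libraries summed) that fell in each class of kept cells. Endothelial-like cells held 53.2% of *Kitl* and 49.3% of *Il7*, fibroblast-like cells 48.9% of *Angpt1*, and *Lepr* was spread over the *Msmp*-led cluster, fibroblast-like and tendon-like cells.

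With both libraries summed, endothelial-like cells held 53.2% of all *Kitl* UMIs in kept cells, fibroblast-like cells 13.6% and osteoblast-like cells 13.2%. Fibroblast-like cells held 48.9% of *Angpt1*, osteoblast-like cells 16.8%, chondrocyte-like cells 11.6% and tendon-like cells 10.7%. Endothelial-like cells held 49.3% of *Il7*, fibroblast-like cells 20.8% and chondrocyte-like cells 19.8%. *Jag1* was the most widely spread of the 4 ligands, with 33.5% in osteoblast-like, 19.1% in fibroblast-like, 12.5% in tendon-like and 10.8% each in endothelial-like and chondrocyte-like cells. *Lepr* was held to 25.9% by the *Msmp*-led cluster, 25.1% by fibroblast-like cells, 22.1% by tendon-like cells and 10.2% by endothelial-like cells. The *Msmp*-led cluster came first only in the calcitriol library, with 58 untreated and 588 calcitriol *Lepr* UMIs, against 261 and 365 in fibroblast-like and 186 and 364 in tendon-like cells. *Vcam1* was held to 36.3% by fibroblast-like cells, 24.6% by osteoblast-like cells and 14.5% by tendon-like cells. These shares depend on how many cells of each kind were caught.

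Erythroid-like cells, which are not known to make these factors, set the background of free RNA. Of 2306 untreated and 434 calcitriol erythroid-like cells, 4 and 1 held a *Kitl* UMI, 10 and 0 a *Vcam1* UMI, 2 and 0 a *Lepr* UMI, and 2 and 2 a *Jag1* UMI. No erythroid-like cell held an *Angpt1* or *Il7* UMI, and counts of 0 there leave room for 0.130% and 0.691% of cells at most. The largest of the untreated shares, 0.434% for *Vcam1*, lay below the shares of positive cells in the clusters that the results turn on, and the untreated erythroid-like clusters were of like depth, with median UMI counts of 8577 to 12686.5 against 10414 in untreated fibroblast-like cells.

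**Figure D2:**
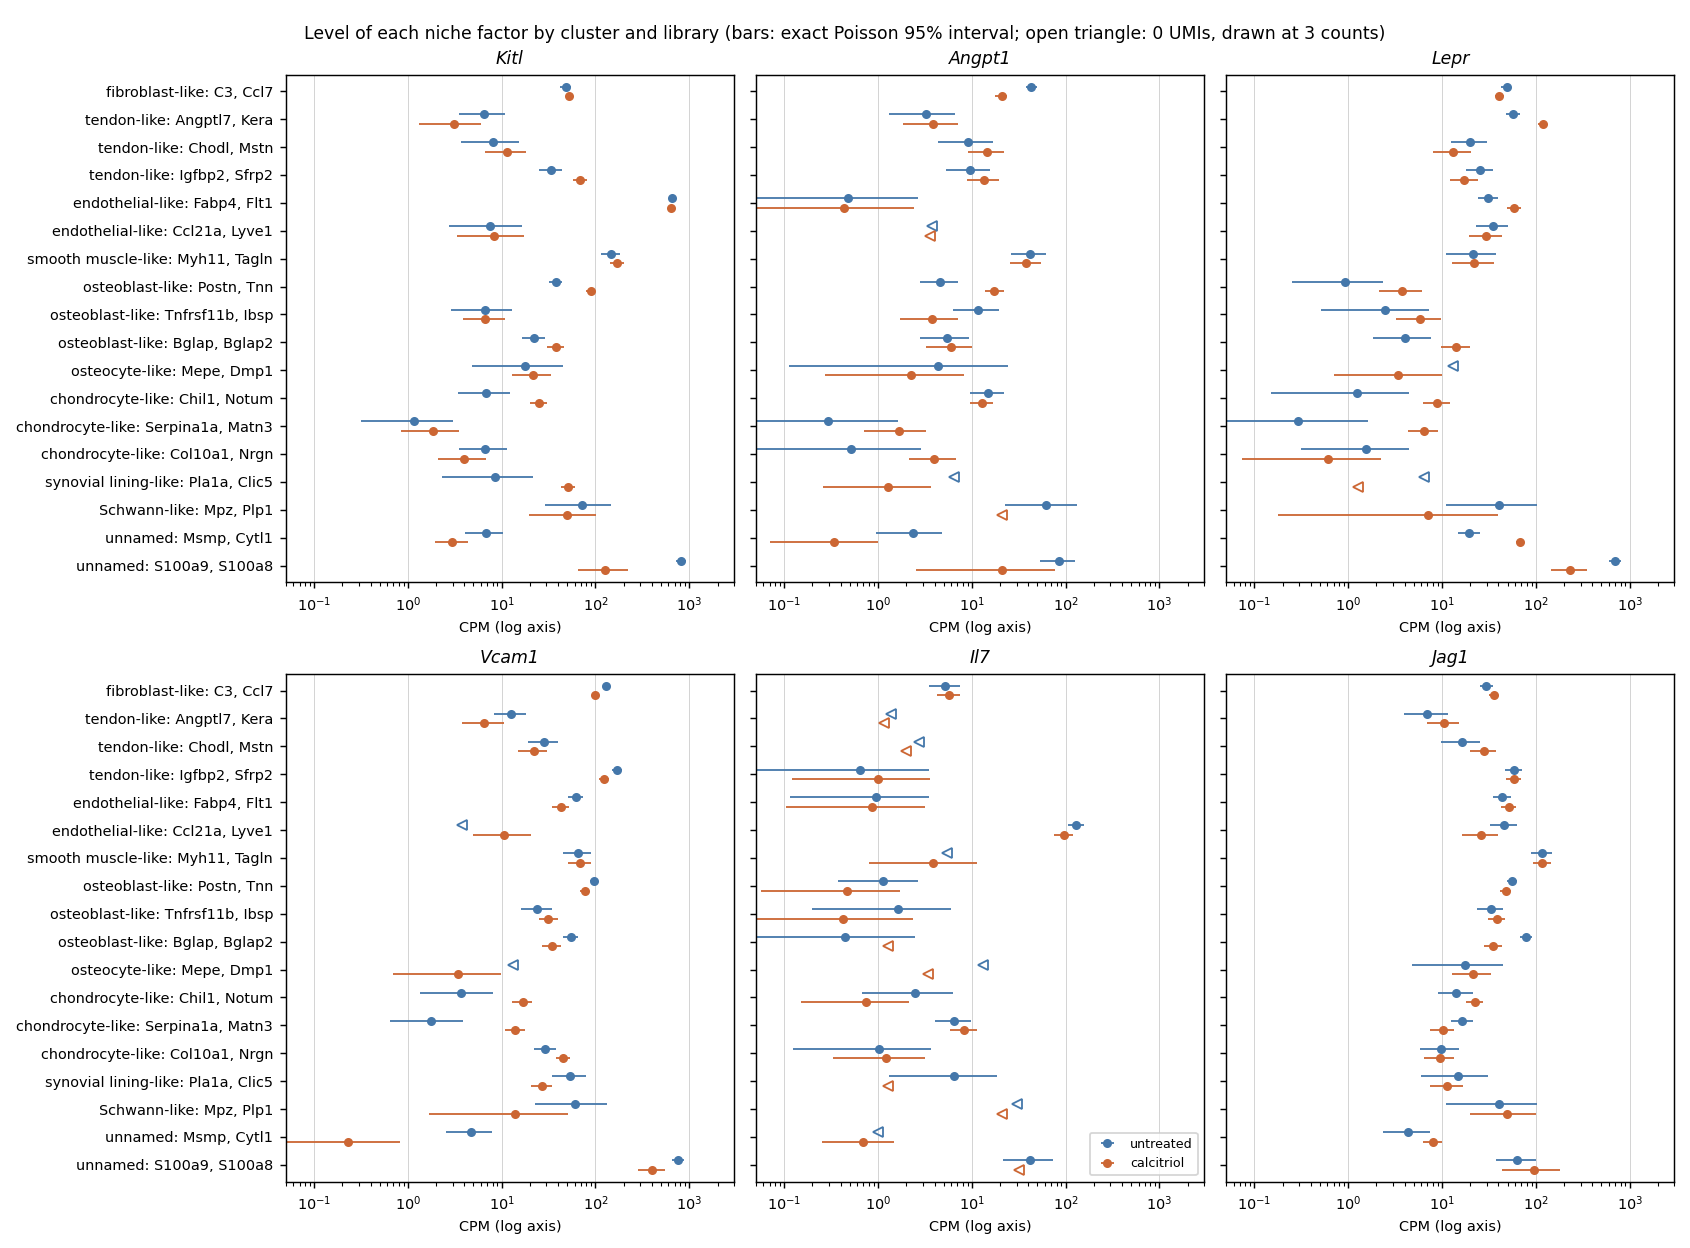
Each panel plots 1 factor, with the level in CPM on a log axis and the clusters as rows (erythroid-like clusters not shown). Points are the untreated and the calcitriol library, bars are exact Poisson 95% intervals, cut at the left edge of the axis, and open triangles mark 0 UMIs, drawn at the level of 3 counts. The *Kitl* points of the endothelial-like cluster led by *Fabp4* lie at 651 and 637 CPM, and those of *Angpt1* in the fibroblast-like cluster at 43.1 and 20.7 CPM.

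*Kitl*, the ligand of Kit, was most abundant in endothelial-like cells led by *Fabp4* and in the *S100a9*-led cluster, at 644 and 645 CPM with both libraries summed. These sums hide unlike values in the *S100a9*-led cluster. Its 33 untreated cells held 816 CPM (714 to 928), above the *Fabp4*-led cells of that library. Its 8 calcitriol cells held 127 CPM (65.6 to 222), below the *Fabp4*-led cells of theirs. This cluster was a mixture, described below, that differed in make-up between the libraries. All its 233 untreated and 12 calcitriol *Kitl* UMIs lay in 20 untreated and 2 calcitriol cells with markers of marrow reticular stroma. The values are therefore no comparison of like cells between the libraries. Next came smooth muscle-like cells at 159 CPM, then the osteoblast-like cluster led by *Postn* at 62.8 CPM, Schwann-like cells at 58.1, the *Igfbp2*-led tendon-like cluster at 53.6 and fibroblast-like cells at 50.9 CPM. Each of these last 4 overlapped with its neighbour in the order, but the *Postn*-led and fibroblast-like levels were apart. The endothelial-like cells led by *Ccl21a* held little *Kitl*, with 7.48 and 8.32 CPM in the untreated and calcitriol libraries.

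In the *Fabp4*-led endothelial-like cluster *Kitl* stood at 651 CPM (1353 UMIs) in the untreated and 637 CPM (1468 UMIs) in the calcitriol library. The log2 ratio of calcitriol over untreated was −0.03 (−0.14 to 0.08), so neither library stood above the other. A *Kitl* UMI was found in 166 of 230 untreated cells (72.2%) and 176 of 268 calcitriol cells (65.7%), and after thinning each cell to 4000 UMIs, which left out shallower cells, in 121 of 149 (81.2%) and 124 of 164 (75.6%). Cells with 10 or more *Kitl* UMIs numbered 48 untreated and 60 calcitriol and held 65.0% and 74.0% of its UMIs. Cells with at least 2 arterial markers and fewer than 2 sinusoidal markers, 85 untreated and 112 calcitriol, held 694 and 704 CPM, and the 18 and 9 cells with the reverse pattern held 442 and 398 CPM. These marker gates were set after the data had been seen, and the arterial-marked cells were deeper, with a median of 10585 UMIs against 6799.

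In the osteoblast-like cluster led by *Postn* and *Tnn*, *Kitl* stood at 37.7 CPM untreated and 88.5 CPM with calcitriol, a log2 ratio of 1.23 (0.96 to 1.5). The share of cells with a *Kitl* UMI was 32.4% (78 of 241) and 56.9% (124 of 218), and 11.4% (27 of 237) and 22.7% (48 of 211) after thinning, so the calcitriol library was higher by each measure. In the *Igfbp2*-led tendon-like cluster *Kitl* was 33.6 CPM untreated and 69.1 CPM with calcitriol, a log2 ratio of 1.04 (0.57 to 1.52) that lay on the 2-fold line. In the *Chil1*-led chondrocyte-like cluster it was 6.79 and 24.8 CPM, a log2 ratio of 1.87 (0.97 to 2.92) from only 11 untreated UMIs, and 0.38 as a mean over the CPM of single cells. The osteoblast-like cluster led by *Bglap* held 22.0 and 37.8 CPM, a log2 ratio of 0.78 (0.26 to 1.31) in which 1 calcitriol cell carried 28 of 88 UMIs. Smooth muscle-like cells held 146 and 169 CPM and fibroblast-like cells 48.0 and 52.6 CPM, with log2 ratios of 0.21 (−0.20 to 0.63) and 0.13 (−0.09 to 0.36). The synovial lining-like cluster, with 25 untreated and 95 calcitriol cells, held 8.51 and 51.1 CPM, the former from 4 UMIs.

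*Angpt1*, the ligand of Tek, was found at 68.4 CPM in the *S100a9*-led cluster, 39.2 CPM in smooth muscle-like cells and 29.1 CPM in fibroblast-like cells with both libraries summed, each overlapping with its neighbour in this order. Endothelial-like cells, which carry the receptor, were nearly free of it, with 1 UMI per library in the *Fabp4*-led cluster and 0 UMIs in the 74 *Ccl21a*-led cells, which allows a share of cells with a UMI of up to 8.11% in each library.

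In fibroblast-like cells *Angpt1* stood at 43.1 CPM (231 UMIs in 437 cells) in the untreated and 20.7 CPM (185 UMIs in 670 cells) in the calcitriol library. The log2 ratio was −1.06 (−1.34 to −0.77), and the calcitriol library was the lower. The share of cells with an *Angpt1* UMI was 28.1% untreated and 19.1% with calcitriol, and 14.8% (62 of 419) and 8.82% (56 of 635) after thinning. The difference was not carried by a few cells, since 30 untreated and 39 calcitriol cells held 50% of the UMIs. Among cells with a UMI of *Pi16*, a marker of adventitial fibroblasts, *Angpt1* was 48.0 and 26.7 CPM, and among those without 41.8 and 19.3 CPM, with log2 ratios of −0.85 (−1.45 to −0.25) and −1.11 (−1.44 to −0.79). The summed fibroblast markers were also lower in the calcitriol library, at 7552 and 5352 CPM with all 8 detected in both, and erythroid marker RNA was 19705 and 6550 CPM. Their part in the *Angpt1* difference was not tested.

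In the *Postn*-led osteoblast-like cluster *Angpt1* lay the other way, at 4.57 CPM (20 UMIs) untreated and 17.4 CPM (74 UMIs) with calcitriol, a log2 ratio of 1.93 (1.2 to 2.72). A UMI was found in 5.39% of untreated and 16.5% of calcitriol cells, and in 1.27% (3 of 237) and 5.21% (11 of 211) after thinning. The ratio was 0.47, short of 2-fold, after thinning to 2000 UMIs, which left 4 and 5 *Angpt1* UMIs. The same cluster differed between the libraries in other marker sums: 7 smooth muscle markers summed to 1072 CPM untreated and 73.3 CPM with calcitriol (5 of 7 detected in each), 5 synovial lining markers to 205 and 722 CPM, and 9 reticular stromal markers to 463 and 635 CPM, while the 9 osteoblast markers summed to 17692 and 20824 CPM. Their part in the *Kitl* and *Angpt1* values of this cluster was not tested. Smooth muscle-like cells held 41.4 and 37.7 CPM of *Angpt1*, a log2 ratio of −0.13 (−0.97 to 0.72).

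*Il7*, the lymphoid cytokine, was concentrated in the endothelial-like cells led by *Ccl21a* and *Lyve1*, at 111 CPM with both libraries summed. The *S100a9*-led cluster followed at 31.6 CPM, the *Serpina1a*-led chondrocyte-like cluster at 7.53 CPM and fibroblast-like cells at 5.53 CPM, and only the last of these steps lay within the intervals. The *Fabp4*-led endothelial-like cells, by contrast, held 2 *Il7* UMIs in each library.

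The *Ccl21a*-led cluster held 37 cells in each library. *Il7* stood at 128 CPM (103 UMIs) untreated and 95.1 CPM (80 UMIs) with calcitriol, a log2 ratio of −0.43 (−0.87 to 0.00). A UMI was found in 30 untreated (81.1%) and 23 calcitriol cells (62.2%), and in 13 of 35 (37.1%) and 9 of 35 (25.7%) after thinning, so the calcitriol library was the lower by a margin near the counting error. The *Serpina1a*-led chondrocyte-like cells, with high medians of 30528.5 and 28394 UMIs, held 6.46 and 8.29 CPM in 18 of 108 and 26 of 171 cells, with a log2 ratio of 0.36 (−0.43 to 1.18). Fibroblast-like cells held 5.23 and 5.71 CPM in 24 of 437 and 42 of 670 cells, with a log2 ratio of 0.13 (−0.56 to 0.85). *Il7* was too rare for a ratio in the remaining clusters.

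*Jag1*, the Notch ligand, was found at 116 CPM in smooth muscle-like cells, 71.0 CPM in the *S100a9*-led cluster, 58.6 CPM in the *Igfbp2*-led tendon-like cluster, 56.2 and 52.0 CPM in the *Bglap*-led and *Postn*-led osteoblast-like clusters and 47.9 CPM in *Fabp4*-led endothelial-like cells, and each of these levels overlapped with the next. Smooth muscle-like cells held 115 and 117 CPM in the untreated and calcitriol libraries, a log2 ratio of 0.02 (−0.46 to 0.51).

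In the osteoblast-like cluster led by *Bglap*, the osteocalcin gene of mature osteoblasts, *Jag1* stood at 78.3 CPM (174 UMIs) untreated and 35.2 CPM (82 UMIs) with calcitriol, a log2 ratio of −1.15 (−1.55 to −0.77). The share of cells with a UMI was 42.1% (45 of 107) and 26.8% (30 of 112), and 19.0% (20 of 105) and 11.9% (12 of 101) after thinning. The summed osteoblast markers of this cluster were 54277 CPM untreated and 29552 CPM with calcitriol, and the summed osteocyte markers 728 and 1650 CPM, and their part in the *Jag1* difference was not tested. The ratio depended on which cells made up the cluster, and it was short of 2-fold in other groupings of the cells, at −0.71 where the libraries were clustered without integration and −0.35 under a stricter filter on clusters. In the *Postn*-led and *Tnfrsf11b*-led osteoblast-like clusters the levels were 56.0 and 47.9 CPM, and 33.0 and 38.7 CPM, with log2 ratios of −0.22 (−0.50 to 0.05) and 0.23 (−0.32 to 0.80). Fibroblast-like cells held 29.7 and 35.6 CPM, and *Fabp4*-led endothelial-like cells 43.8 and 51.6 CPM.

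*Lepr*, the leptin receptor, stood at 587 CPM in the *S100a9*-led cluster, well apart from 91.0 CPM in the *Angptl7*-led tendon-like cluster. The *Msmp*-led cluster followed at 55.0 CPM, again apart from the one before it. *Fabp4*-led endothelial-like cells at 45.9, fibroblast-like cells at 43.8 and *Ccl21a*-led endothelial-like cells at 32.3 CPM each overlapped with the one before. In osteoblast-like and chondrocyte-like cells *Lepr* was scarce, with 79 and 75 UMIs in 907 and 732 cells.

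In the *Msmp*-led cluster, in which 5 synovial lining markers summed to 48934 and 46879 CPM and 9 chondrocyte markers to 30152 and 21305 CPM, *Lepr* was 19.5 CPM (58 UMIs in 194 cells) untreated and 67.1 CPM (588 UMIs in 563 cells) with calcitriol. The log2 ratio was 1.78 (1.39 to 2.19). A UMI was found in 12.9% (25) of untreated and 30.4% (171) of calcitriol cells, and in 2.79% (5 of 179) and 14.9% (81 of 544) after thinning, so the calcitriol library was higher in level and in share. In the *Angptl7*-led tendon-like cluster *Lepr* was 57.5 and 119 CPM, a log2 ratio of 1.05 (0.74 to 1.36), while the share of cells with a UMI was 44.4% (63 of 142) and 49.5% (90 of 182), so the levels differed more than the number of positive cells. Synovial lining markers of that tendon-like cluster summed to 5330 CPM untreated and 13207 CPM with calcitriol, and their part was not tested. The other tendon-like clusters had lower values with calcitriol, within their intervals, at 25.4 and 17.3 CPM in the *Igfbp2*-led cluster, a log2 ratio of −0.55 (−1.25 to 0.14), and at 19.9 and 13.3 CPM from 22 and 20 UMIs in the *Chodl*-led one. The tendon-like class as a whole held 38.4 and 59.3 CPM, a log2 ratio of 0.63 (0.37 to 0.89).

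*Lepr* in *Fabp4*-led endothelial-like cells was 31.3 and 59.0 CPM, a log2 ratio of 0.92 (0.48 to 1.37), but the share of cells with a UMI was 17.4% (40 of 230) and 15.7% (42 of 268). In this cluster 7 calcitriol cells held 50% of the *Lepr* UMIs, against 11 untreated cells. Fibroblast-like cells held 48.7 and 40.9 CPM, a log2 ratio of −0.25 (−0.49 to −0.02), and *Ccl21a*-led endothelial-like cells 34.9 and 29.7 CPM. As whole classes, osteoblast-like cells held 2.05 and 7.03 CPM and chondrocyte-like cells 0.860 and 5.68 CPM, log2 ratios of 1.78 (0.97 to 2.67) and 2.72 (1.53 to 4.22) that rest on 16 and 6 untreated UMIs.

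*Vcam1*, the adhesion molecule, stood at 671 CPM in the *S100a9*-led cluster, then at 144 CPM in the *Igfbp2*-led tendon-like cluster, 109 CPM in fibroblast-like cells and 87.0 CPM in *Postn*-led osteoblast-like cells. These 4 levels were apart by their counting intervals, which do not cover the spread between cells. In the *Igfbp2*-led cluster 7 untreated and 8 calcitriol cells held 50% of the *Vcam1* UMIs. Smooth muscle-like cells followed at 66.4 CPM and *Fabp4*-led endothelial-like cells at 51.6 CPM.

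In fibroblast-like cells *Vcam1* was 129 CPM (691 UMIs) untreated and 97.7 CPM (873 UMIs) with calcitriol, a log2 ratio of −0.40 (−0.55 to −0.25). A UMI was found in 22.7% (99 of 437) and 19.7% (132 of 670) of cells. Among cells without a *Pi16* UMI *Vcam1* was 138 and 86.5 CPM, a log2 ratio of −0.68 (−0.84 to −0.51). Among cells with one it was 94.3 and 146 CPM, a log2 ratio of 0.63 (0.30 to 0.97). However, 1 calcitriol cell held 129 of the 246 UMIs behind the value of 146 CPM, which the counting interval does not cover. The shares of cells with *Pi16* that held *Vcam1* were 17.7% untreated and 14.7% with calcitriol. Sum and share thus lay in opposite directions, and no direction is read from the sum. *Vcam1* was held by few of the fibroblast-like cells: 11 untreated and 13 calcitriol cells held 50% of its UMIs, and the 19 and 26 cells with 10 or more UMIs held 68.0% and 68.3%. In the same cells *Angpt1* and *Lepr* were spread over 21 to 39 cells at the same mark. Smooth muscle-like cells held 64.8 and 67.6 CPM, a log2 ratio of 0.06 (−0.58 to 0.72). In 4 other clusters rich in *Vcam1* the calcitriol library was somewhat lower, at 169 and 124 CPM in the *Igfbp2*-led, 97.1 and 76.6 CPM in the *Postn*-led, 54.9 and 34.3 CPM in the *Bglap*-led and 61.6 and 42.5 CPM in the *Fabp4*-led cluster, with log2 ratios of −0.44, −0.34, −0.68 and −0.53. None of these reached 2-fold.

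The *Vcam1*-rich fibroblast-like cells were looked at after their values had been seen. The 9 reticular stromal markers summed to 3588 CPM in the 19 untreated cells with 10 or more *Vcam1* UMIs and to 750 CPM in the 338 cells with none, and to 2490 and 1002 CPM in the corresponding 26 and 538 calcitriol cells. *Cxcl12*, the chemokine that retains blood stem cells, was 2355 CPM in the untreated *Vcam1*-rich cells against 175 CPM in the cells without *Vcam1*, and 976 against 249 CPM in the calcitriol library. *Gas6*, a ligand of TAM receptors, was 929 against 335 CPM and 1185 against 389 CPM. Not every marker of the list lay this way: *Lpl* was 60.8 against 136 CPM untreated and 120 against 208 CPM with calcitriol, and *Ebf3* 6.76 against 20.5 CPM and 13.5 against 28.8 CPM. The *Vcam1*-rich cells were poor in *Lepr*, however, at 6.76 against 50.7 CPM untreated and 13.5 against 51.4 CPM with calcitriol, and *Adipoq* was found as 1 UMI in the untreated and 0 in the calcitriol *Vcam1*-rich cells. Macrophage markers summed to 193 CPM in the untreated *Vcam1*-rich cells against 7.94 CPM in those without, and to 37.1 against 4.11 CPM with calcitriol, and their part was not tested. The *Vcam1*-rich cells were also deeper, with medians of 14404 against 9991 UMIs untreated and 19494 against 10584 with calcitriol.

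In chondrocyte-like cells much of the *Vcam1* count came from a few calcitriol cells. The *Serpina1a*-led cluster held 1.76 CPM untreated and 13.9 CPM with calcitriol, but 1 calcitriol cell held 43 of the 67 UMIs. The *Chil1*-led cluster held 3.70 and 16.7 CPM, of which 1 calcitriol cell held 26 of 68 UMIs. In the *Col10a1*-led cluster, with 29.2 and 45.4 CPM, 1 calcitriol cell held 137 of 148 UMIs. Without the cell holding the most *Vcam1* UMIs in each library, the *Serpina1a*-led cluster kept 4 and 24 UMIs (log2 ratio 2.07) and the *Chil1*-led cluster 2 and 42 (3.06), under the 50 UMIs needed for a call, and the chondrocyte-like class as a whole was no longer past 2-fold. Shares of cells with a *Vcam1* UMI were 4.63% and 5.85%, 3.41% and 4.85%, and 21.6% and 8.05% in these clusters, in the same order.

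**Figure D3:**
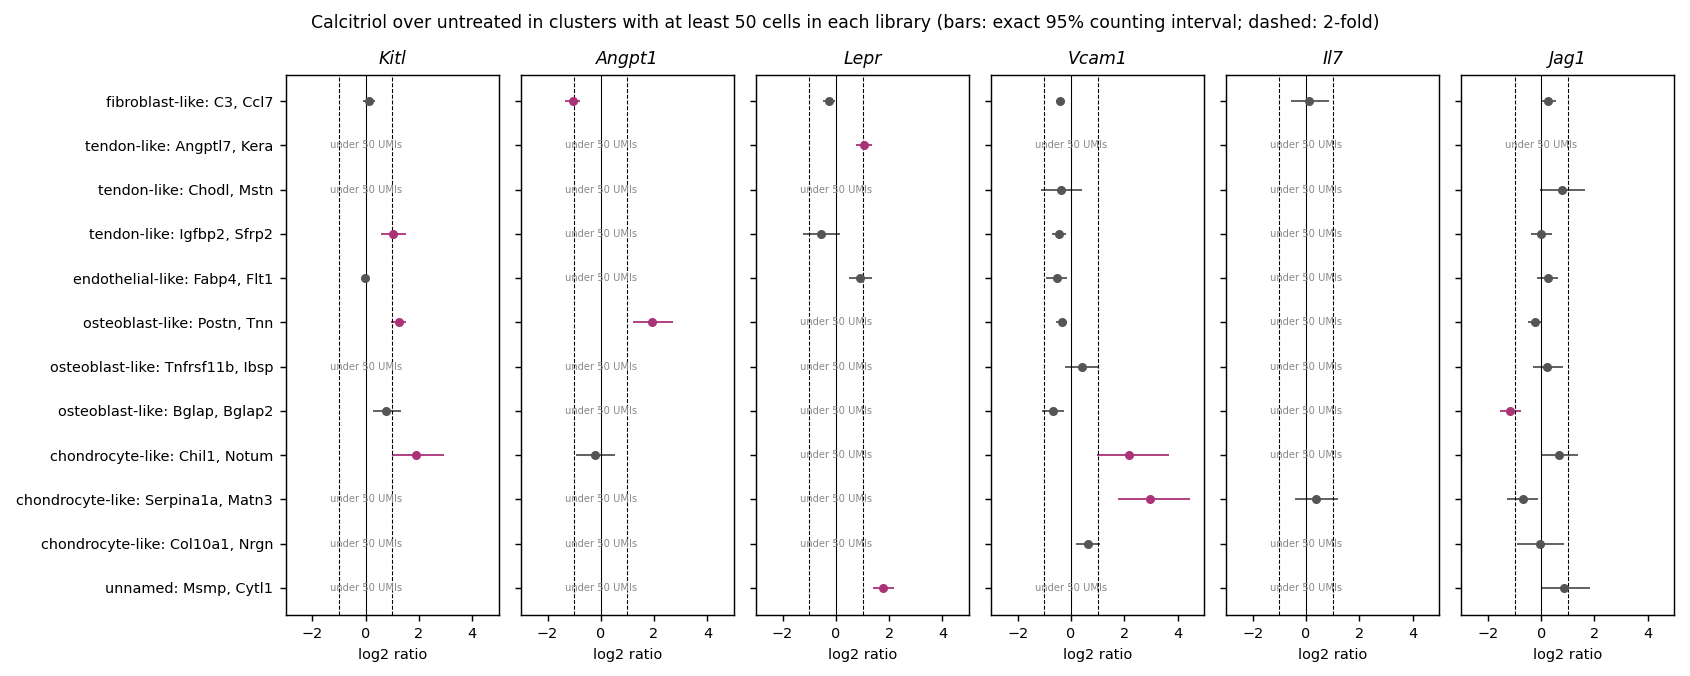
Each panel plots 1 factor, with the log2 ratio of calcitriol over untreated on the x axis for the 12 clusters with at least 50 cells in each library (erythroid-like clusters not shown). Bars are exact 95% counting intervals, dashed lines mark 2-fold, purple points are at least 2-fold apart with at least 50 UMIs, and pairs with fewer UMIs carry no point. *Angpt1* lies at −1.06 in fibroblast-like and 1.93 in *Postn*-led osteoblast-like cells.

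The number of factors past 2-fold in each cluster is given beside the share of all genes past it. A gene was assessed where it had at least 50 UMIs over both libraries, and called where CPM differed by at least 2-fold. In fibroblast-like cells 1 of the 6 factors was called, *Angpt1*, lower with calcitriol, against 5.91% of 10137 genes. In the *Fabp4*-led endothelial-like cluster 0 of 4 were called, against 4.62% of 7419 genes. In the *Postn*-led osteoblast-like cluster 2 of 4 were called, *Kitl* and *Angpt1*, both higher, against 6.45% of genes. In the *Bglap*-led osteoblast-like cluster 1 of 3 was called, *Jag1*, lower, against 5.17%, and in the *Tnfrsf11b*-led one 0 of 2, against 6.74%. In the *Msmp*-led cluster 1 of 2 was called, *Lepr*, higher, against 7.16%.

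Among the tendon-like clusters 1 of 1 factor was called in the *Angptl7*-led cluster, *Lepr*, higher, against 10.4% of genes, 1 of 4 in the *Igfbp2*-led cluster, *Kitl*, higher, against 8.36%, and 0 of 2 in the *Chodl*-led cluster, against 7.6%. Among the chondrocyte-like clusters 2 of 4 were called in the *Chil1*-led cluster, *Kitl* and *Vcam1*, both higher, against 8.65%, 1 of 3 in the *Serpina1a*-led cluster, *Vcam1*, higher, against 7.5%, and 0 of 2 in the *Col10a1*-led cluster, against 7.16%. Summed over whole classes, 0 of 5 were called in tendon-like cells against 7.07% of genes, 0 of 5 in endothelial-like cells against 4.41%, 1 of 5 in osteoblast-like cells, *Lepr*, against 5.87%, and 3 of 6 in chondrocyte-like cells, *Kitl*, *Lepr* and *Vcam1*, against 7.61%. Counts of 1 to 6 factors are too few to say whether the factors as a set differed from other genes. The medians of all assessed genes lay between −0.14 and 0.02 on the log2 scale in these clusters.

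The *S100a9*-led cluster was a mixture. Its 41 cells were split, by a rule set after the data had been seen, into 22 cells with more UMIs of the reticular stromal markers than of neutrophil and leukocyte markers, and 19 cells with fewer. The 22 reticular stromal-like cells, 20 untreated and 2 calcitriol, held all or nearly all UMIs of *Kitl*, *Vcam1*, *Il7* and *Lepr* in this cluster. They also held most of those of *Angpt1*. The other 19 cells held no *Kitl*, *Vcam1* or *Il7* UMI, 3 UMIs each of *Angpt1* and *Lepr*, and 9 of *Jag1*. Of these 9 *Jag1* UMIs 8 lay in 1 cell, and the untreated and the calcitriol reticular stromal-like cells held 9 each. The 20 untreated reticular stromal-like cells had 3 to 9 of the 9 markers, a median of 8, and 1 was scored as a doublet.

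**Figure D4:**
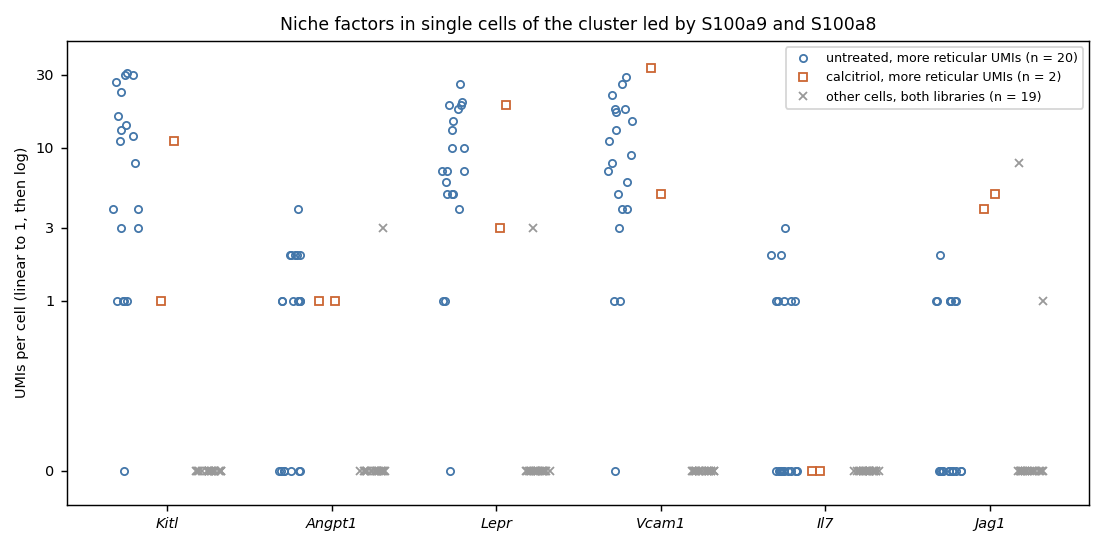
Each point is 1 cell of the *S100a9*-led cluster, with its UMIs of each factor on the y axis (linear to 1, then log). Circles are the 20 untreated and squares the 2 calcitriol cells with more reticular stromal than blood marker UMIs, and crosses are the other 19 cells, nearly all at 0.

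In the 20 untreated reticular stromal-like cells *Kitl* stood at 1410 CPM (1235 to 1604), *Vcam1* at 1314 CPM (1145 to 1500), *Lepr* at 1198 CPM (1037 to 1378) and *Angpt1* at 127 CPM (78.7 to 194). *Kitl*, *Lepr* and *Vcam1* were each found in 19 of the 20 cells, *Angpt1* in 13 and *Il7* and *Jag1* in 8 each, and their UMIs per cell ranged from 0 to 31, 26 and 29 for the first 3. The 2 calcitriol cells held *Kitl* at 270 CPM, *Lepr* at 495, *Vcam1* at 855 and *Angpt1* at 45.0 CPM, and with 2 cells no comparison between the libraries was made. The untreated levels of *Kitl*, *Lepr* and *Vcam1* lay above, and their intervals apart from, those of every named cluster in the same library.

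Of the 22 reticular stromal-like cells 3 held all 6 factors, 7 held 5, 9 held 4, 2 held 3 and 1 held 1. After thinning to 4000 UMIs, 82.4% of the untreated reticular stromal-like cells held 3 or more factors, against 2.15% of 419 untreated and 2.20% of 635 calcitriol fibroblast-like cells. They numbered 20 of 4393 kept untreated cells and 2 of 3689 kept calcitriol cells. The marrow had been flushed out, the first digests discarded and CD45-positive cells removed before sequencing, and the number of cells caught cannot be told apart from the number in the bone.

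In other clusters the share of cells with 1 factor was compared between cells with and without another, for each pair in both directions, per library, and with and without thinning. Of 695 such comparisons 30 had intervals that did not overlap, and 29 of those were unthinned, where cells with the first factor were in most cases deeper. In calcitriol fibroblast-like cells *Kitl* was found in 43.9% of the 132 cells with *Vcam1* and 24.2% of the 538 without, while *Lepr* was found in 9.85% and 21.0%. The cells with *Vcam1* had a median of 15563.5 UMIs against 10584, so depth and the *Lepr* share lay in opposite directions, and after thinning the *Lepr* shares were 4.88% and 11.9%, with overlapping intervals. In untreated fibroblast-like cells the *Lepr* shares were 22.2% and 22.8%. In the *Postn*-led cluster *Kitl* was found in 45.5% of untreated cells with *Vcam1* and 23.2% of those without, with 16.7% and 9.84% after thinning.

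*Kit*, the receptor for *Kitl*, was itself found in *Fabp4*-led endothelial-like cells, at 46.2 CPM untreated and 49.0 CPM with calcitriol. *Tek*, the receptor for *Angpt1*, was 161 and 130 CPM there, a log2 ratio of −0.30 (−0.53 to −0.07), and 12.5 and 16.2 CPM in fibroblast-like cells. *Angpt2*, the other Tek ligand, was 88.2 and 121 CPM in smooth muscle-like cells and 58.7 and 53.8 CPM in *Fabp4*-led endothelial-like cells. *Notch3*, the Notch receptor of mural cells, was 389 and 490 CPM in smooth muscle-like cells, which were also the cells with the most *Jag1*. *Itga4* was at 97.6 CPM in erythroid-like cells with both libraries summed, which held 94.1% of its UMIs. *Il7r* was listed at 0 UMIs in all 8082 kept cells, of which 3 cells would make a share of 0.0371%. Of the 17 partner genes, 7, 12 and 6 were assessed in fibroblast-like, *Fabp4*-led and *Postn*-led cells and 0 were past 2-fold. *Socs3* was higher in the *Msmp*-led cluster, 1 of 6 assessed, and in the *Chodl*-led cluster, 1 of 5, against 7.16% and 7.6% of all genes. Both *Socs3* and *Notch2* were higher in the *Tnfrsf11b*-led cluster, 2 of 5, against 6.74%.

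Other niche genes were counted from a list of 25 ligands and adhesion genes. In fibroblast-like cells 18 were assessed, of which 2 were at least 2-fold higher, *Il6* and *Spp1*, and 3 lower, *Igf1*, *Wnt5a* and *Ptn*, with a list median of 0.02. Of all genes assessed there, 5.91% were past 2-fold in either direction. *Igf1*, the growth factor, was 705 CPM untreated and 258 CPM with calcitriol in these cells, a log2 ratio of −1.45 (−1.53 to −1.38), and *Il6* was 204 and 420 CPM. *Cxcl12* was 355 and 400 CPM in fibroblast-like cells and 826 and 454 CPM in *Fabp4*-led endothelial-like cells, the latter a log2 ratio of −0.86 (−0.97 to −0.75), beside a *Kitl* level that differed by far less. In *Fabp4*-led cells 2 of 18 were higher, *Bmp4* and *Spp1*, and 2 lower, *Ptn* and *Tnc*, against 4.62% of all genes in either direction. In *Postn*-led cells 2 of 15 were higher, *Bmp4* and *Spp1*, and 3 lower, *Igf1*, *Ptn* and *Angptl2*, against 6.45% of all genes in either direction. *Spp1* and *Ptn* were very abundant in osteoblast-like cells, *Spp1* at 25080 and 90523 CPM in the *Bglap*-led and *Ptn* at 3319 and 928 CPM in the *Postn*-led cluster, and the part of free RNA in their low levels elsewhere was not tested.

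Further lists were counted in the same way in fibroblast-like, *Fabp4*-led and *Postn*-led cells. Of all genes, 5.91%, 4.62% and 6.45% were past 2-fold in these clusters, in either direction. Of 5 Notch target genes 2, 3 and 1 were assessed and 0 were past 2-fold. Of 6 niche transcription factors 6, 5 and 4 were assessed, and *Klf15* was higher in fibroblast-like cells, at 0.373 CPM (2 UMIs) untreated and 16.0 CPM with calcitriol. *Vdr*, the vitamin D receptor, was assessed in *Postn*-led cells, at 11.4 and 31.7 CPM, a log2 ratio of 1.47 (0.99 to 1.97), and in *Bglap*-led cells, at 55.8 and 154 CPM, while fibroblast-like cells held 0 and 25 *Vdr* UMIs. From the list of 2 vitamin D genes that held *Vdr*, 1 gene was also assessed in each of the *Serpina1a*-led and *Col10a1*-led clusters. The log2 ratios there were 0.12 and −0.41, not past 2-fold. Of 10 inflammatory genes *Il6* was higher and *Cxcl5* lower in fibroblast-like cells, *Cxcl1* was lower in *Fabp4*-led cells and *Ccl7* higher in *Postn*-led cells. Of 10 genes known to respond to dissociation 10 were assessed in each and 0 were past 2-fold. Elsewhere *Hspa1a* was higher in the *Angptl7*-led cluster, 1 of 10, against 10.4% of all genes. *Hspa1a* and *Hspa1b* were higher, 2 of 10, in the *Chil1*-led, *Serpina1a*-led, *Col10a1*-led and *Tnfrsf11b*-led clusters, against 8.65%, 7.5%, 7.16% and 6.74%. Their part in the ratios of these clusters was not tested. Of 7 genes known to respond to glucocorticoids 5 were higher in fibroblast-like cells, with a list median of 1.21, and 2 each in *Fabp4*-led and *Postn*-led cells. In fibroblast-like cells these were *Tsc22d3*, *Zbtb16*, *Sgk1*, *Mt1* and *Mt2*, and their part in the *Angpt1* difference was not tested. Of the same 7 genes, 5 were higher in the *Msmp*-led and 6 in the *Angptl7*-led cluster, against 7.16% and 10.4% of all genes. Some were higher in every other cluster counted, and their part in the *Lepr* values was not tested.

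The genes most like each factor were found by the correlation of log2(CPM + 10) over the 25 clusters, among 11890 genes with at least 200 UMIs, and are given as a description, since clusters share libraries and depth. *Kitl* was most like *Ripk3* (r = 0.94), *Cxcl12* (0.92) and *Psmb8* (0.92), all highest in *Fabp4*-led endothelial-like cells or the *S100a9*-led cluster. *Angpt1* was most like *Il1rl2* (0.88), *B3galnt1* (0.87) and *Limk1* (0.86), and *Il7* most like *Adgrg3* (0.95), *Fam174b* (0.92) and *Kbtbd11* (0.92), all 3 highest in the *Ccl21a*-led cells. *Jag1* was most like *Csrp2* (0.93), *Angptl4* (0.92) and *Adamts1* (0.92), which fell to 0.78, 0.77 and 0.76 over the 18 clusters without the erythroid-like ones. *Lepr* was most like *Il15* (0.90), *D17H6S53E* (0.89) and *Dgkq* (0.88), and *Vcam1* most like *Slc2a3* (0.89), *Asb4* (0.88) and *Por* (0.88). All 6 of these were highest in the *S100a9*-led cluster, a mixture of 41 cells. The levels of *Il15*, *D17H6S53E* and *Dgkq* there, 34.2, 13.2 and 10.5 CPM, rest on few UMIs.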

How the data were processed

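Single-cell RNA sequencing data of femoral cells from 1 untreated and 1 calcitriol pool were used. The authors made the deposited UMI counts per gene and barcode with Cell Ranger 4.0.0 on mm10 and analysed them with Seurat 3.2.2. Here, barcodes with at least 200 genes were integrated in Seurat 5.3.0 (R 4.3.3) on 2000 variable genes, without the 6 factors and their partner genes, and clustered with 30 components at resolution 0.8. Clusters past all 3 limits (median mitochondrial share over 10%, under 1000 genes, under 2000 UMIs) were left out. Clusters were named only where at least 3 markers were found in at least 10% of cells at 2-fold or more. These limits were chosen with the clusters already known, and passing them was not enough for a name. The *S100a9*-led cluster passed them with 7 of 9 reticular stromal markers and with 4 leukocyte markers, and stayed unnamed. Cells scored as doublets by Scrublet in scanpy 1.11.5 (Python 3.11.15), 3.63% untreated and 2.83% with calcitriol, were kept. UMIs were summed per cluster and library. CPM have exact Poisson intervals, shares Clopper-Pearson intervals and log2 ratios exact conditional binomial intervals, all 95%. Depth was compared by thinning cells to 4000 or 2000 UMIs. The genes named as most alike were, for each factor, the 3 with the highest Pearson correlation of log2(CPM + 10) over clusters, at 200 UMIs or more. A ratio was assessed with at least 50 UMIs in both libraries together. The calculations were tested on simulated data. The factors and all gene lists were chosen with earlier results of these data known.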

Additional observations from a re-analysis of the deposited data

Results flagged for a closer look

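*Angpt1* differed in opposite directions between the libraries in different cells. Its log2 ratio of calcitriol over untreated was −1.06 in the fibroblast-like cluster and 1.93 in the *Postn*-led osteoblast-like cluster, and with 1 library per group the difference between these ratios was not tested. The second was 0.47, from 4 and 5 UMIs, after thinning to 2000 UMIs. The *Tnfrsf11b*-led and *Bglap*-led osteoblast-like clusters lay at −1.61 and 0.15, each from fewer than 50 *Angpt1* UMIs.

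*Vcam1* was also found outside the clusters described, as 166 UMIs in barcodes that the filters had left out. Of these, 142 were in 29 untreated and 24 in 13 calcitriol barcodes, and 1 untreated barcode held 28. In the left-out clusters of the untreated library *Vcam1* stood at 171 CPM, above the 129 CPM of untreated fibroblast-like cells, and in those of the calcitriol library at 35.1 CPM. The untreated barcodes of these clusters had a median of 1676 UMIs. They held, of the macrophage genes *C1qa*, *Lyz2* and *Cd68*, 0, 2 and 1 UMIs.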

How the results depend on the processing

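No paired analysis was possible because each group was 1 library, and for the same reason no replicate could be left out, so the stability of these values between mice is unknown. Over 14 alternatives the log2 ratio in the class with the highest untreated level ranged from −0.21 to 0.04 for *Kitl* in endothelial-like cells (10 of 14 below 0, as in the value reported), from −1.37 to −0.97 for *Angpt1*, from −0.35 to −0.0044 for *Lepr* and from −0.54 to −0.31 for *Vcam1* in fibroblast-like cells, from −1.04 to −0.15 for *Il7* in endothelial-like cells and from −0.59 to −0.35 for *Jag1* in osteoblast-like cells. Values outside the counting interval were −0.21 for *Kitl* after thinning to 2000 UMIs, −1.37 for *Angpt1* and −1.04 for *Il7* as means over the CPM of each cell, the latter past 2-fold, and −0.0044 for *Lepr* where classes were set from the markers of each cell. *Angpt1* was past 2-fold in 13 of 14 and at −0.97 after the median of all genes was subtracted. In the other classes 4 of 21 pairs of factor and class were past 2-fold, against 2 of 11 after thinning to 4000 UMIs and 2 of 7 after thinning to 2000 UMIs, none of them among the 4, and 2 to 6 over all alternatives. Of all genes, 4.41% (endothelial-like) to 7.61% (chondrocyte-like) were past 2-fold in the 5 classes without thinning, and no such share was computed after thinning. Thinning leaves fewer UMIs, so fewer pairs are assessed. These counts are too few to say whether the factors as a set differed from other genes. *Vcam1* in chondrocyte-like cells was not past 2-fold without the cell holding the most *Vcam1* UMIs in each library.

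Alternatives for single clusters were added after the data had been seen. *Lepr* in the *Msmp*-led cluster ranged from 1.76 to 3.02 and *Kitl* in the *Postn*-led cluster from 1.11 to 1.91. *Angpt1* in the *Postn*-led cluster ranged from 0.47 to 2.17 and *Kitl* in the *Chil1*-led cluster from 0.38 to 2.20, the lowest values being those after thinning to 2000 UMIs and as a mean over cells. *Kitl* in the *Igfbp2*-led cluster was past 2-fold in 7 of 12 alternatives and *Jag1* in the *Bglap*-led cluster in 8 of 11. A cluster with no match of at least 0.5 (Jaccard overlap) in another clustering gave no value there. Among others, the *Angptl7*-led cluster had no such match with 20 components, at 0.49. Of 207 alternatives for single ratios 192 stayed within the counting interval, 15 moved out of it and no ratio past 2-fold changed sign. The causes of these shifts were not tested.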
